A study of Mus musculus with 5 samples.

Results

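Molecular chaperones of the HSP70, HSP90 and chaperonin families and their J protein partners were examined in lymphatic endothelial cells (LECs), the cells that form the walls of the lymph channels in a lymph node. Members were all protein-coding mouse genes whose symbols begin with Hspa, Hsph, Hspd, Hspe, Hsp90, Dnaja, Dnajb, Dnajc or Cct and a digit, without the small heat shock protein genes (Hspb). The rule used no measured value and took 68 of the 27843 genes in the count table, of which 64 passed the filter on low counts and were tested. Cct8l1 had 0 reads in every library, and Dnajb13, Dnajb7 and Dnajc22 had 0 to 14 reads per library. Hspa14, Dnajc5b, Dnajc5g and Dnajb8 also fit the rule but were not analysed here.

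The RNA came from LECs sorted from lymph nodes of 8-week-old C57BL/6 mice. There were 2 knockout libraries from Ccl19 Cre Rankl flox/flox mice and 3 control libraries from Rankl flox/flox littermates. Rankl, also called Tnfsf11, encodes a cytokine whose receptor RANK is carried by LECs, and all 5 libraries came from mice with the floxed allele. Cre recombinase driven by Ccl19 acts in lymph node stromal cells that express this chemokine, so the level of Tnfsf11 in sorted LECs is no check of genotype, and recombination in the sorted cells was not measured here. Tnfsf11 had 0.164 and 0 CPM (a unit of reads scaled to library size) in the knockout libraries, against 0.380, 0.208 and 0.173 CPM in the control libraries. The labels do not say how many animals gave each library.

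HSP70 proteins bind and release unfolded segments of other proteins in a cycle driven by ATP. J proteins (DNAJ) deliver clients and start ATP hydrolysis, and nucleotide exchange factors, among them the HSP110 proteins, reset the cycle. HSP90 acts later, on partly folded clients such as kinases and receptors, with the help of cochaperones. The chaperonin TRiC encloses actin and tubulin during folding in the cytosol, HSP60 and HSP10 form the chaperonin of mitochondria, and BiP (Hspa5) and Grp94 (Hsp90b1) serve the endoplasmic reticulum (ER). Several of these genes are targets of the heat shock factor HSF1, which binds repeated GAA and TTC units. Some of the ER members, among them BiP and Grp94, are induced by the unfolded protein response.

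Library totals were 53301671 and 59725200 reads in the knockout libraries and 52839375 to 70171307 in the control libraries, so that 1 CPM stood for 52.0 to 71.0 reads after TMM scaling. The LEC transcription factor Prox1 was present at 884 and 852 CPM in the knockout libraries and at 1384 to 1577 CPM in the controls, and the pan-leukocyte gene Ptprc at 2.15 to 2.89 CPM in all 5. Of 9 LEC markers, Ccl21a and Mmrn1 were higher and Prox1 and Stab2 lower in the knockout libraries, with sums of 12870 and 11030 CPM in the knockout libraries and 11430 to 12490 CPM in the controls. Of 12 blood endothelial markers, 8 were higher and 1, Kdr, was lower in the knockout libraries, and 11 had log2 fold changes above 0, with a median of 1.23. Their summed levels, carried by Plvap and Kdr, were 4397 and 5274 CPM in the knockout libraries and 4625 to 5022 CPM in the controls. The 8 fibroblast and reticular markers summed to 848 and 377 CPM in the knockout libraries and 291 to 388 CPM in the controls, with no gene past the threshold. Of the 6 pericyte and smooth muscle markers, 5 had log2 fold changes above 0 (median 1.10) and Acta2 was higher, at 35.8 and 4.50 CPM in the knockout libraries and 1.76 to 1.94 CPM in the controls. They summed, mostly through Rgs5, to 100 and 65.9 CPM in the knockout libraries and 58.1 to 85.0 CPM in the controls. The 9 leukocyte markers, 1 higher and 1 lower, summed to 23.8 and 32.2 CPM in the knockout libraries and 13.7 to 20.5 CPM in the controls. Of the 6 tested erythroid and platelet markers, 2, Pf4 and Gp1ba, were lower. The list summed to 989 and 1250 CPM in the knockout libraries and 1412 to 1984 CPM in the controls. Nearly all of this sum was Itga2b, at 982 and 1241 CPM in the knockout libraries and 1394 to 1958 CPM in the controls. Itga2b did not pass (edgeR adjusted p = 0.085). Pf4 stood at 1.99 and 5.00 CPM in the knockout libraries and 11.4 to 18.5 CPM in the controls. Gp1ba stood at 3.00 and 3.30 CPM in the knockout libraries and 5.62 to 6.60 CPM in the controls. The sum was thus close to the level of Itga2b alone and was not taken as a measure of platelet RNA. Over all tested genes, 3.25% were higher and 3.99% lower. The part of these markers in the results below was not tested. In sorted bulk RNA a smaller share of a cell type and less RNA per cell cannot be told apart.

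Few chaperone genes passed the test between the genotypes, namely the inducible HSP70 pair and a pair of J proteins that work at membranes. Hspa1a and Hspa1b were higher and Dnajc6 and Dnajc13 were lower in the knockout libraries by edgeR's quasi-likelihood test (Benjamini-Hochberg adjusted p under 0.05 over 15874 genes). That is 2 of 64 tested members, or 3.12%, in each direction, beside 3.25% of all tested genes higher and 3.99% lower. The share of members called was thus near that of all genes. The other 60 members did not pass, and 12 members had an unadjusted p under 0.05, 8 of them higher and 4 lower, against 26.4% of all tested genes. In the families with no call by edgeR, an unadjusted p under 0.05 was found for 1 HSP110 gene, 1 TRiC subunit, 2 class B J proteins and 0 genes of HSP90, HSP60 and HSP10 and class A. DESeq2 called 8 members (12.5%), against 17.1% of all tested genes, and in these families it called Hsph1 and Dnajb4 alone.

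As a body, the tested members had small fold changes. Their log2 fold changes, knockout minus control throughout, had a median of 0.12, beside -0.00 over all tested genes. The median absolute log2 fold change was 0.17 for members and 0.28 for all tested genes. Members are abundant, with a median log2 CPM of 5.96 against 3.47 for all tested genes, and among the 3102 genes at or above that level the median absolute change was 0.20. An absolute log2 fold change under 0.5 was found in 56 of 64 tested members (87.5%), against 71.4% of all tested genes, and 1 member exceeded 1, against 10.5% of all. Both knockout libraries lay above all 3 controls in 20 tested members (31.2%), against 22.8% of all tested genes, and below them in 7 (10.9%), against 22.5%. The plot of log2 fold changes by family shows these members in order.

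**Figure D1:**
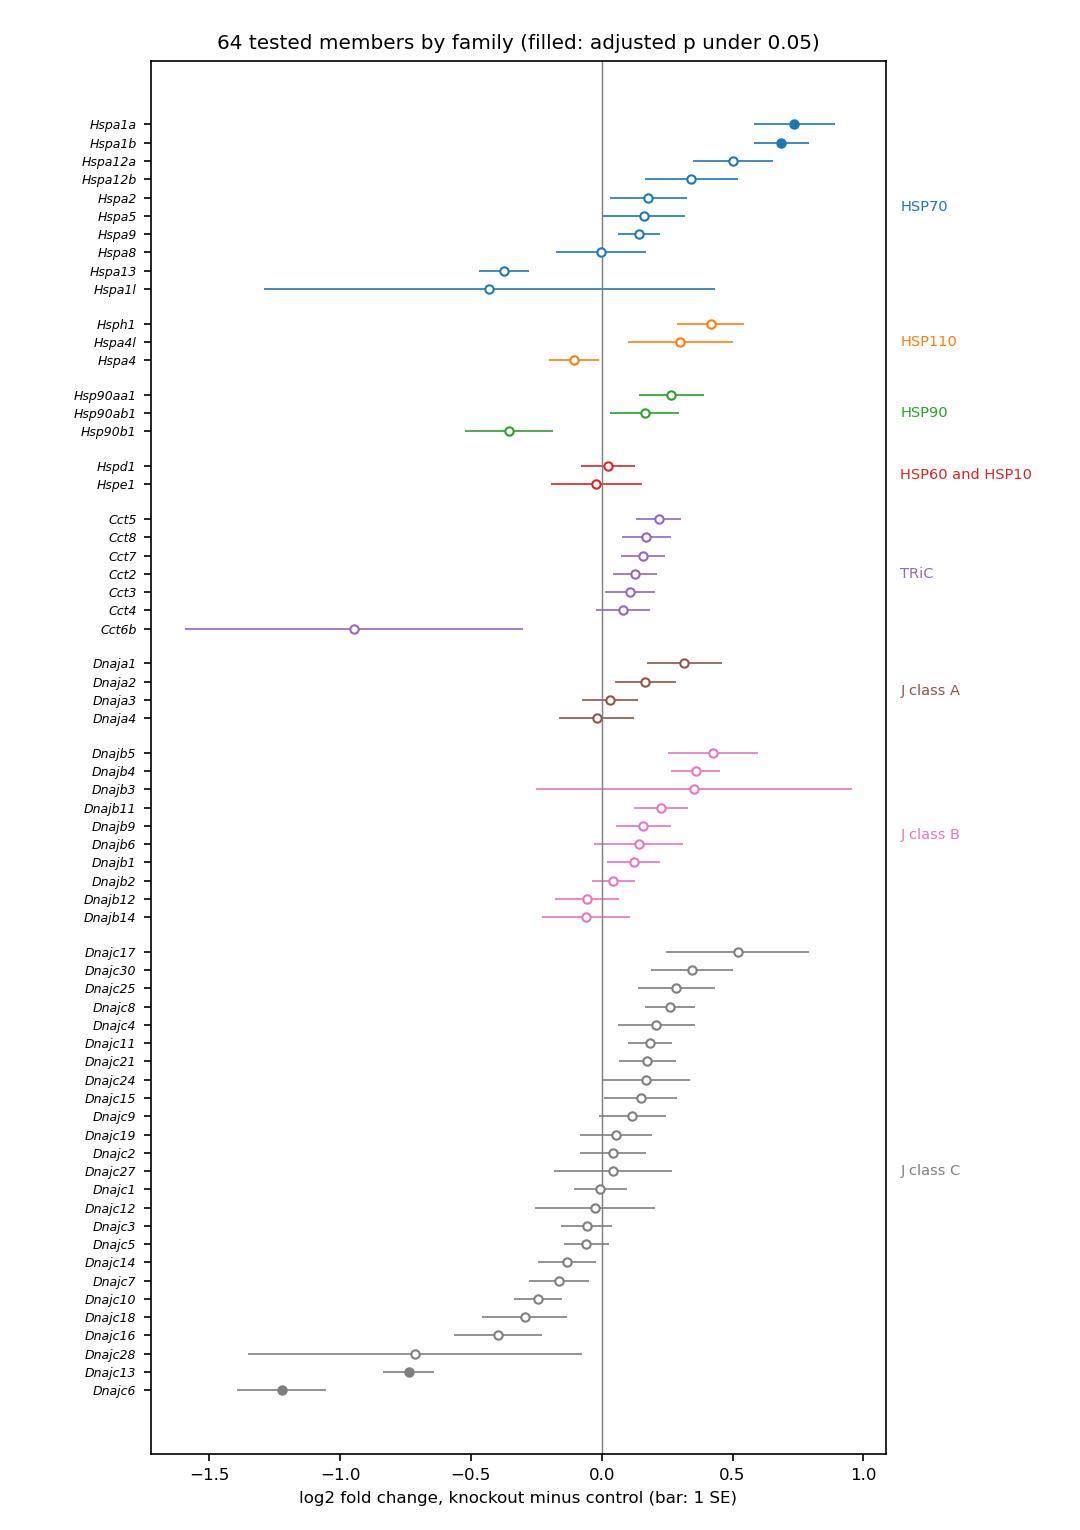
Log2 fold change, knockout minus control, of the 64 tested members by family, with bars of 1 standard error and filled points where the edgeR adjusted p was under 0.05. The 4 filled points are Hspa1a (0.74), Hspa1b (0.69), Dnajc13 (-0.74) and Dnajc6 (-1.22), while 56 members lie within 0.5 of 0.

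Hspa1a and Hspa1b encode the stress-inducible cytosolic HSP70 from neighbouring, nearly identical genes on chromosome 17 (mm10, 34969190 to 34972156 and 34956436 to 34959238, both on the minus strand). Their promoters are shown because these are the members that rose, beside those of Hsph1, the stress-inducible HSP110 gene, and Hspe1, the HSP10 gene, which holds a run of heat shock units but did not pass the test. The windows cover the 250 bases before the start of each gene in RefSeq (GRCm38.p6), read 5′ to 3′ on the gene's strand, with the GAA and TTC units of a pair or run in capitals. They are chr17:34972157-34972406 on the minus strand for Hspa1a, chr17:34959239-34959488 on the minus strand for Hspa1b, chr5:149636337-149636586 on the minus strand for Hsph1 and chr1:55087898-55088147 on the plus strand for Hspe1.
Hspa1a: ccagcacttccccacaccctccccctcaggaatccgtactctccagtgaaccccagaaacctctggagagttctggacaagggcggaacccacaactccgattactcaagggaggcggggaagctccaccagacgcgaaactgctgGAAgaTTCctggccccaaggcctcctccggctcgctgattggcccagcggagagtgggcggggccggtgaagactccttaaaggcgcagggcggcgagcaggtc
Hspa1b: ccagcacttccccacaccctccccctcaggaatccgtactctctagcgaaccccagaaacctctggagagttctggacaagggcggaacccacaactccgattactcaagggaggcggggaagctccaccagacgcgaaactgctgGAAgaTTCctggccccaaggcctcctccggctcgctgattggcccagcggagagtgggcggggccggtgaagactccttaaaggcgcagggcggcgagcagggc
Hsph1: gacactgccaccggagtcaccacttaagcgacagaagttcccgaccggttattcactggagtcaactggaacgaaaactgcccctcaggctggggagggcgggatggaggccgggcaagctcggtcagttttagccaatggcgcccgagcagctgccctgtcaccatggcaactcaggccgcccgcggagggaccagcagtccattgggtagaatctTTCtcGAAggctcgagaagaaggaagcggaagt
Hspe1: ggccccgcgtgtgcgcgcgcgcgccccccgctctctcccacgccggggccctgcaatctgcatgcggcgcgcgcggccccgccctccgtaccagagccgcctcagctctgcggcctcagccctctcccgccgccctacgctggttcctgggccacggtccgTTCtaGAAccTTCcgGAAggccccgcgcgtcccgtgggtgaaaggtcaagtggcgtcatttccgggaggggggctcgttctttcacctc

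The windows of Hspa1a and Hspa1b differed at 3 of 250 bases (98.8% identical), and each held 1 GAANNTTC pair and 1 CCAAT box. The Hsph1 window held 1 TTCNNGAA pair, and the Hspe1 window held a run of 4 alternating units. Only exact GAA and TTC units at this spacing were searched for, so inexact heat shock elements were not counted. Of the 68 members, 55 had a RefSeq window, and Hsp90aa1, Hsp90ab1, Hspa8 and Hspa9 were among the 13 that did not. Searched on these windows, the pair GAANNTTC, which reads the same on both strands, was found in 10 members (18.2%) and in 7.73% of 27025 genes with a window. The other pair, TTCNNGAA, also its own reverse complement, was found in 7 members (12.7%) and 8.11% of all genes, and either pair in 14 members (25.5%) and 14.5% of all. The pairs overlap within a run of 3 or more units, which was found in Dnajb6, Hspd1 and Hspe1 (5.45% of members) and in 0.514% of all genes. The Hspd1 and Hspe1 windows overlap on opposite strands, so these 2 members share 1 run. On either strand, CCAAT was found in 40% of members and 37.5% of all genes, and TATAAA in 3.64% of members and 14.3% of all. The motif CCACG, a part of the ER stress element, was found in 54.5% of members and 31% of all. Neither heat shock pair was found in the windows of Dnajc6 and Dnajc13.

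Hspa1b was measured at 316 and 337 CPM in the knockout libraries, against 218, 183 and 208 CPM in the control libraries. Hspa1a was measured at 143 and 159 CPM in the knockout libraries, against 108, 74.7 and 88.7 CPM in the control libraries. Both knockout libraries were above every control for both genes. Hspa1b averaged 326 ± 14.8 CPM in knockout (SD, n = 2) and 203 ± 18.2 CPM in control libraries (SD, n = 3), and the log2 fold change was 0.69 ± 0.10 (SE, edgeR adjusted p = 0.020), which is 1.61-fold. Hspa1a averaged 151 ± 11.7 CPM in knockout (SD, n = 2) and 90.6 ± 16.9 CPM in control libraries (SD, n = 3), and the log2 fold change was 0.74 ± 0.16 (SE, edgeR adjusted p = 0.041), or 1.67-fold. These genes share much of their sequence: 66.3% of the 50-base windows of Hspa1a and 62.3% of those of Hspa1b also occur in another gene, and how such reads were counted was not given in the sources used here, so the split of reads between them is uncertain. In addition, 19.0% of the exon bases of Hspa1a overlap the predicted gene Gm20481. Summed, the pair had 459 and 496 CPM in the knockout libraries and 326, 257 and 297 CPM in the control libraries, with a log2 fold change of 0.70 ± 0.12 (SE, edgeR adjusted p = 0.025).

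The calls on this pair were lost when control library 2 or 3 was left out, as were most calls over all genes. Of all tested genes, 7.24% were called with all 5 libraries, 1.12% without control library 2 and 0.0705% without control library 3. Without control library 2 the edgeR adjusted p was 0.092 for Hspa1a, 0.068 for Hspa1b and 0.075 for the sum, and without control library 3 it was 0.15, 0.098 and 0.12 in that order, with log2 fold changes of 0.62 to 0.72 in these fits. Hspa1a also missed the threshold with an offset for the length and GC content of exons (edgeR adjusted p = 0.077). Without knockout library 2 its edgeR adjusted p was 0.086, in a comparison that leaves 1 knockout library and takes the spread from the controls. The immediate early genes, which respond within minutes to handling of cells, are given beside this result. Of 14, Ier3 passed the edgeR test, at 453 and 490 CPM in the knockout libraries and 330 to 370 CPM in the controls (log2 fold change 0.45 ± 0.10, SE, edgeR adjusted p = 0.044). Dusp1, at 2742 and 3225 CPM in the knockout libraries and 2035 to 2276 CPM in the controls (0.45 ± 0.12, SE, edgeR adjusted p = 0.069), and Jund, at 511 and 541 CPM in the knockout libraries and 427 to 440 CPM in the controls (0.28 ± 0.09, SE, edgeR adjusted p = 0.098), did not pass. Fosb stood on the other side, at 596 and 623 CPM in the knockout libraries and 775 to 811 CPM in the controls. Its log2 fold change was -0.37 ± 0.09 (SE, edgeR adjusted p = 0.058), also without passing. Of the 14, 10 had log2 fold changes above 0 and 4 below, with a median of 0.07. Both knockout libraries lay above all controls in 3 of the 14 (Ier3, Dusp1 and Jund) and below them in 1 (Fosb). Over all tested genes these shares were 22.8% above and 22.5% below. DESeq2 called 4 of the 14, Dusp1, Jund and Ier3 higher and Fosb lower, against 17.1% of all tested genes. Summed, the list had 13940 and 19470 CPM in the knockout libraries and 14190 to 15630 CPM in the controls. Knockout library 2 was above knockout library 1 in all 14 genes, against 48.9% of all tested genes. The median log2 difference of library 2 minus library 1 was 0.53 in the list and -0.01 over all tested genes. The part of this list in the result was not tested.

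**Figure D2:**
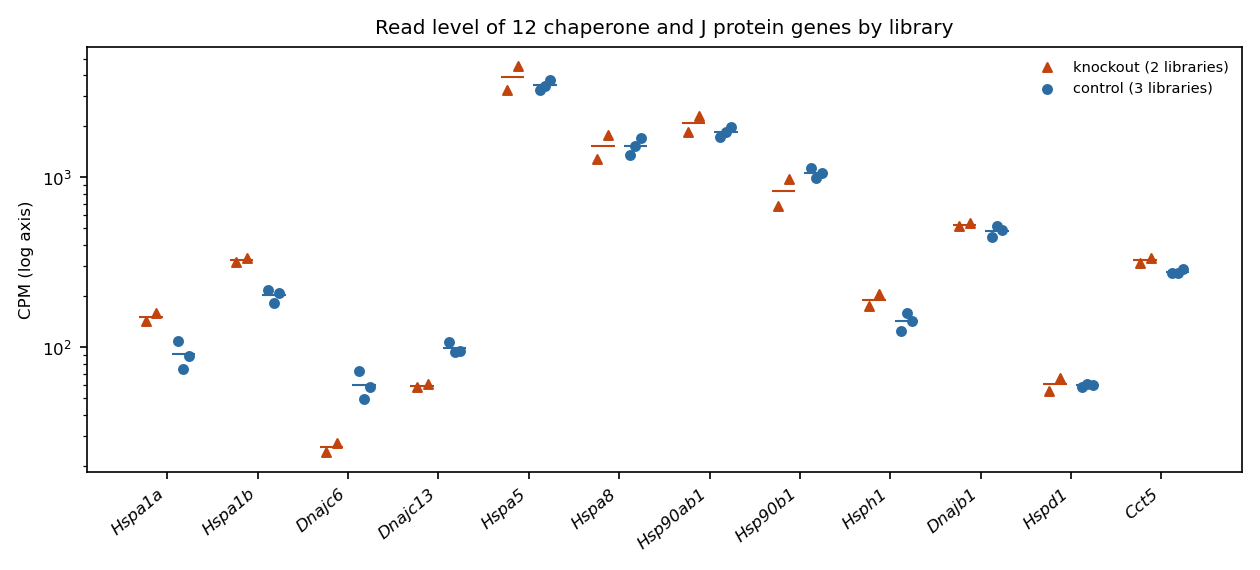
CPM (log axis) of the 4 members that passed the test and 8 other leading members, 1 point per library, with knockout libraries left of control libraries and horizontal lines at group means. For Hspa1b the knockout libraries sit at 316 and 337 CPM, above the controls at 183 to 218 CPM, and for Dnajc6 they sit at 24.0 and 27.4 CPM, below the controls at 49.7 to 72.1 CPM.

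Dnajc6 fell most among the members. It encodes auxilin, a J protein that brings HSC70 (Hspa8) to clathrin-coated vesicles to remove their coat, and it lies on chromosome 4 (mm10, 101496648 to 101642799, plus strand). Dnajc6 had 24.0 and 27.4 CPM in the knockout libraries, against 72.1, 49.7 and 58.4 CPM in the control libraries. The groups did not overlap, and the lowest control stood well above the higher knockout library. Its means were 25.7 ± 2.41 CPM in knockout (SD, n = 2) and 60.1 ± 11.3 CPM in control libraries (SD, n = 3), and the log2 fold change was -1.22 ± 0.17 (SE, edgeR adjusted p = 0.017), or a ratio of 0.428. Without control library 3 the edgeR adjusted p was 0.081, at a log2 fold change of -1.25.

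Dnajc13 encodes RME-8, a J protein of endosomes that also works with HSC70, in the sorting of membrane cargo, and lies on chromosome 9 (mm10, 104151282 to 104262930, minus strand). It had 58.0 and 60.5 CPM in the knockout libraries, against 108, 94.3 and 94.8 CPM in the control libraries, again with no overlap. The means were 59.3 ± 1.81 CPM in knockout (SD, n = 2) and 98.9 ± 7.49 CPM in control libraries (SD, n = 3), with a log2 fold change of -0.74 ± 0.10 (SE, edgeR adjusted p = 0.015), or a ratio of 0.599. Without control library 2 the edgeR adjusted p was 0.053, and without control library 3 it was 0.080, both at a log2 fold change of -0.77. Its exons are long (11938 bases, against a median of 4239 for tested members), and with the offset for length and GC content the log2 fold change was -0.56 ± 0.10 (SE, edgeR adjusted p = 0.036). Hspa8, the HSP70 that both J proteins serve, had 1278 and 1777 CPM in the knockout libraries and 1349, 1534 and 1707 CPM in the controls. Its groups overlapped fully, with a log2 fold change of -0.00 ± 0.17 (SE, edgeR adjusted p = 0.99), and 39.4% of its 50-base windows occur in other genes.

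Compared per kilobase of exon (merged over transcripts), the ER chaperone Hspa5 (BiP) was the most abundant member, at 862 CPM per kb on average over the 5 libraries. Hsp90ab1, the constitutive cytosolic HSP90, followed at 647, then Hspa8 at 355, Hsp90b1 at 240 and Dnajb1, the main cytosolic partner of inducible HSP70, at 156 CPM per kb. Of the chaperonin subunits Cct5 stood at 107 and Cct8 at 92.0 CPM per kb, near Hspa1b at 90.0. Down to Cct5, no member's range over the 5 libraries overlapped that of its neighbour in this order. The ranges of Cct5, Cct8, Hspa1b and Dnaja2 (85.3 CPM per kb) overlapped, so their order is not resolved. Hspa1b, although stress-inducible, was in this upper range in the control libraries as well, at 77.7, 65.1 and 74.2 CPM per kb, against 113 and 120 CPM per kb in the knockout libraries.

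**Figure D3:**
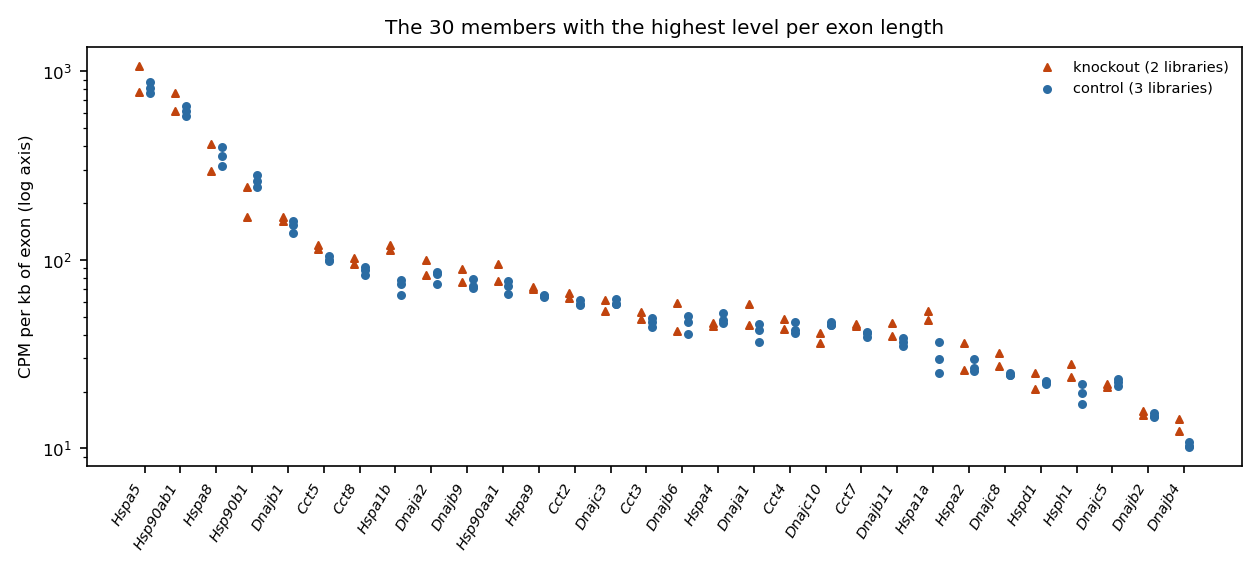
Level per exon length (CPM per kb, log axis) of the 30 members with the highest mean, 1 point per library, knockout as triangles left of control as circles. Hspa5 (862), Hsp90ab1 (647), Hspa8 (355) and Hsp90b1 (240) lead, and Hspa1b and Hspa1a show the knockout points above the control points.

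Among the 10 tested HSP70 genes, 7 had log2 fold changes above 0 and 3 below, with a median of 0.17. Hspa5 had 3276 and 4503 CPM in the knockout libraries, against 3259, 3453 and 3728 CPM in the control libraries. The knockout libraries lay on either side of the middle control, so the groups overlapped (log2 fold change 0.16 ± 0.16, SE, edgeR adjusted p = 0.58), and without knockout library 2 the log2 fold change was -0.09. Hspa13, a microsomal HSP70 that lacks the substrate-binding domain, had 59.4 and 59.1 CPM in the knockout libraries and 81.6, 70.6 and 78.2 CPM in the controls. Both knockout values lay below every control, at -0.37 ± 0.09 (SE), without passing the test (edgeR adjusted p = 0.061). Hspa12a, a divergent HSP70, had 66.6 and 53.2 CPM in the knockout libraries and 37.9, 49.5 and 39.5 CPM in the controls, also without overlap and without passing (0.50 ± 0.15, SE, edgeR adjusted p = 0.092). Hspa12b, its relative known from endothelium, had a log2 fold change of 0.34 ± 0.18 (SE), the mitochondrial Hspa9 0.14 ± 0.08 and Hspa2 0.18 ± 0.15, none of which passed.

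The HSP110 genes encode exchange factors that release nucleotide from HSP70, and none of the 3 passed. Hsph1 had 175 and 205 CPM in the knockout libraries, against 125, 160 and 142 CPM in the control libraries, with no overlap (0.42 ± 0.13, SE, edgeR adjusted p = 0.096). Hspa4l had 105 and 64.7 CPM in the knockout libraries and 61.5, 75.2 and 70.2 CPM in the controls. Its high value was that of knockout library 1 alone, and the log2 fold change was 0.30 ± 0.20 (SE), or -0.10 without that library. Hspa4 had a log2 fold change of -0.11 ± 0.09 (SE).

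None of the 3 HSP90 genes passed. The stress-inducible cytosolic Hsp90aa1 had 304 and 376 CPM in the knockout libraries, against 258, 286 and 303 CPM in the control libraries, just without overlap (0.27 ± 0.12, SE, edgeR adjusted p = 0.23), and 47.5% of its 50-base windows occur in other genes. The constitutive Hsp90ab1 had 1846 and 2303 CPM in the knockout libraries and 1735, 1855 and 1965 CPM in the controls, with overlap (0.16 ± 0.13, SE, edgeR adjusted p = 0.48). The ER member Hsp90b1 stood on the other side, at 680 and 981 CPM in the knockout libraries and 1136, 984 and 1061 CPM in the controls (-0.35 ± 0.17, SE, edgeR adjusted p = 0.23). Knockout library 1 was well below the controls and library 2 was level with the lowest of them. With knockout library 1 alone against the controls the log2 fold change was -0.65.

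The chaperonin TRiC had small positive values, and the mitochondrial pair lay near 0. Of the 7 tested TRiC subunit genes, 6 had log2 fold changes above 0, from 0.08 for Cct4 to 0.22 for Cct5, and none passed. In 4 of the 7 both knockout libraries lay above all controls, against 22.8% of all tested genes. Cct5 had 315 and 333 CPM in the knockout libraries, against 273, 274 and 288 CPM in the control libraries (0.22 ± 0.09, SE, edgeR adjusted p = 0.16). Cct8 (0.17 ± 0.09, SE), Cct7 (0.16 ± 0.08, SE) and Cct2 (0.13 ± 0.08, SE) also stood a little above 0. Cct6b, mostly known from testis, had 6 to 24 reads per library and no reliable fold change. The remaining subunits stand outside the rule: Tcp1, by its symbol, averaged 164 ± 13.3 CPM in knockout (SD, n = 2) and 143 ± 3.74 CPM in control libraries (SD, n = 3), with a log2 fold change of 0.20 ± 0.09 (SE). Cct6a, which the annotation does not class as protein-coding, averaged 269 ± 17.8 CPM in knockout (SD, n = 2) and 240 ± 5.30 CPM in control libraries (SD, n = 3), with a log2 fold change of 0.17 ± 0.09 (SE). Hspd1 (HSP60) had 54.9 and 66.0 CPM in the knockout libraries and 58.3, 60.5 and 59.7 CPM in the controls, on both sides of them (0.02 ± 0.10, SE). Hspe1 (HSP10) had 11.5 and 16.2 CPM in the knockout libraries and 15.3, 13.9 and 12.9 CPM in the controls (-0.02 ± 0.17, SE).

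Among J proteins of class A, which have the full domain set of bacterial DnaJ, none of 4 passed, and in none did the libraries separate by genotype. Dnaja1 had 391 and 504 CPM in the knockout libraries, against 318, 368 and 392 CPM in the control libraries (0.32 ± 0.14, SE, edgeR adjusted p = 0.22), so knockout library 1 was level with the highest control. Dnaja2 (0.17 ± 0.12, SE), the mitochondrial Dnaja3 (0.03 ± 0.11, SE) and Dnaja4 (-0.02 ± 0.14, SE) were closer to 0, and 44.1% of the exon bases of Dnaja4 overlap Wdr61, from whose reads it cannot be told apart without strand.

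Class B includes the heat-inducible Dnajb1 and its relatives, and none of 10 tested passed, with 8 above 0 and a median of 0.15. Dnajb4, a cytosolic relative of Dnajb1, had 125 and 109 CPM in the knockout libraries, against 89.0, 90.4 and 94.5 CPM in the control libraries, without overlap (0.36 ± 0.09, SE, edgeR adjusted p = 0.065). Dnajb5 had 45.5 and 52.9 CPM in the knockout libraries and 28.5, 39.8 and 41.8 CPM in the controls, also without overlap (0.42 ± 0.17, SE, edgeR adjusted p = 0.18). Dnajb1 itself had 514 and 538 CPM in the knockout libraries and 446, 516 and 488 CPM in the controls, with overlap (0.12 ± 0.10, SE, edgeR adjusted p = 0.49). The ER partners of BiP, Dnajb11 (0.23 ± 0.10, SE) and Dnajb9 (0.16 ± 0.10, SE), did not pass.

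Class C, whose members share little beyond the J domain, held both genes that fell. Of 25 tested, 13 were above 0 and 12 below, with a median of 0.04. Dnajc10, an ER reductase that works with BiP, had 206 and 182 CPM in the knockout libraries, against 235, 227 and 227 CPM in the control libraries, without overlap (-0.24 ± 0.09, SE, edgeR adjusted p = 0.15). Dnajc16 had 9.19 and 7.56 CPM in the knockout libraries and 12.4, 11.1 and 9.58 CPM in the controls (-0.40 ± 0.17, SE, edgeR adjusted p = 0.19). Dnajc8, linked to splicing, stood on the other side, at 69.7 and 81.4 CPM in the knockout libraries and 62.5, 62.5 and 64.4 CPM in the controls (0.26 ± 0.10, SE, edgeR adjusted p = 0.14). Dnajc3, the ER protein p58IPK, had a log2 fold change of -0.06 ± 0.10 (SE).

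Grouped by compartment, the 33 tested members of cytosol and nucleus had 26 log2 fold changes above 0 and 7 below, with a median of 0.16, and both passing members that were higher in the knockout belonged to them. The 11 ER members had 3 above and 8 below, with a median of -0.06 and none past the edgeR test, while 2 had an unadjusted p under 0.05 and DESeq2 called 1. The 8 mitochondrial members had 7 above and 1 below (median 0.10), with 0 past the test by edgeR, by DESeq2 or at an unadjusted p under 0.05. Both knockout libraries lay above all controls in 14 cytosolic and nuclear, 1 ER and 3 mitochondrial members, and in 2 members outside these compartments. In the same order, they lay below all controls in 1, 3, 0 and 3 members. Over all tested genes these shares were 22.8% above and 22.5% below. The difference between compartments was not tested. Compartments were assigned from textbook knowledge of each protein, not from these data. Dnajc16 and Dnajc18 were among the 12 tested members left as other or not classed.

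The knockout libraries also differed from each other. Knockout library 2 was above knockout library 1 in 42 of 64 tested members, against 48.9% of all tested genes. Set against the mean of the controls on the log2(CPM + 0.1) scale, the members had a median log2 difference of 0.05 in knockout library 1 and 0.17 in knockout library 2. For cytosolic and nuclear members these medians were 0.09 in library 1 and 0.22 in library 2. ER members were at -0.09 in library 1 and -0.07 in library 2. Gene by gene, the median log2 difference of library 2 minus library 1 was 0.12 for cytosolic and nuclear members and 0.19 for ER members. Library 2 was the higher in 27 of 33 cytosolic and nuclear members and in 6 of 11 ER members. Hspa5, Hspa8, Hsp90ab1 and Hsp90b1, the most abundant members per length, were all lower in knockout library 1 than in library 2. Summed over members, the level was 13693 CPM in knockout library 1 and 16797 CPM in library 2, against 13557, 14096 and 14959 CPM in the controls, so the sum of library 1 lay inside the control range.

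**Figure D4:**
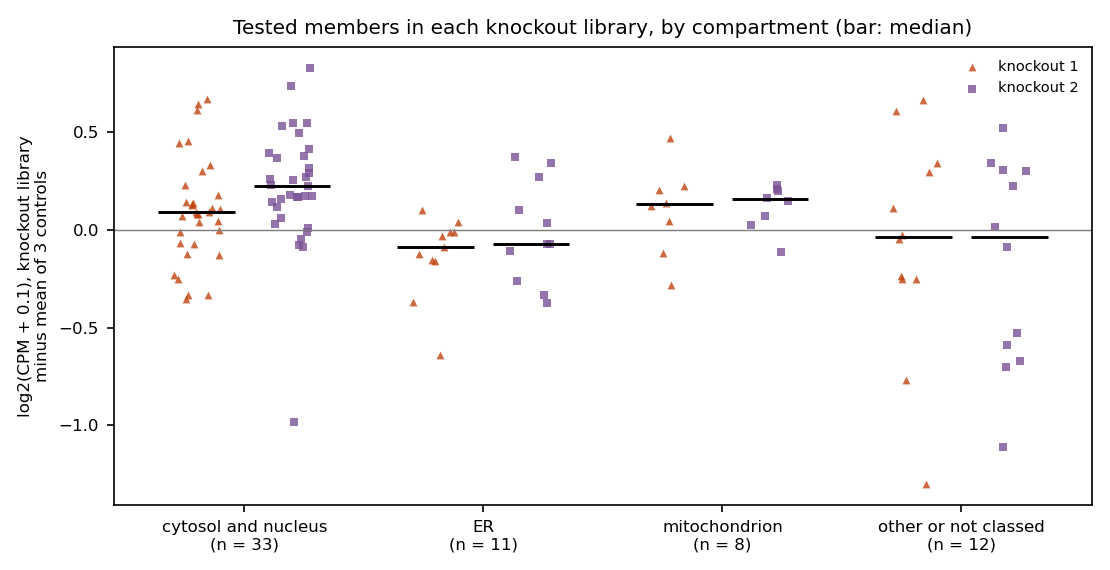
Log2(CPM + 0.1) of each knockout library minus the mean of the 3 control libraries, by compartment, 1 point per tested member and library, with black bars at medians. The medians of cytosolic and nuclear members are 0.09 in knockout library 1 and 0.22 in library 2, and those of ER members are -0.09 in library 1 and -0.07 in library 2. Gene by gene, library 2 minus library 1 has a median of 0.12 in cytosolic and nuclear members and 0.19 in ER members.

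The partners of these chaperones were read from lists of other genes. Among 13 exchange factors and cofactors of HSP70, Bag3 and Bag5 rose and Hyou1 fell. Over all tested genes, 3.25% were higher and 3.99% lower by edgeR. Of the 13, 6 had an unadjusted p under 0.05 (26.4% of all tested genes), and DESeq2 called 6 (17.1% of all). Bag3, which links HSP70 to small heat shock proteins and to autophagy, had 173 and 212 CPM in the knockout libraries, against 112, 109 and 117 CPM in the control libraries (0.78 ± 0.11, SE, edgeR adjusted p = 0.017). Hyou1, the HSP110 relative of the ER and exchange factor of BiP, had 43.2 and 35.6 CPM in the knockout libraries, against 85.2, 65.3 and 70.8 CPM in the control libraries (-0.90 ± 0.15, SE, edgeR adjusted p = 0.022). Both separated the genotypes without overlap. Of the 13 genes, 5 had the knockout libraries above all controls and 1 had them below. Over all tested genes these shares were 22.8% above and 22.5% below. The exchange factor Bag5 averaged 76.4 ± 10.6 CPM in knockout (SD, n = 2) and 51.1 ± 3.04 CPM in control libraries (SD, n = 3; 0.58 ± 0.11, SE, edgeR adjusted p = 0.032).

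The small heat shock proteins, which hold unfolded proteins for HSP70 and use no ATP, had the largest median of these partner lists, 1.13 over 7 tested genes, with 3 higher and none lower. That median is the value of Hspb2, which had 12 to 35 reads per library and did not pass (edgeR adjusted p = 0.20). Of the 7 genes, 5 were above 0 and 2 below. By edgeR 3.25% of all tested genes were higher and 3.99% lower. DESeq2 called 3 of the 7, against 17.1% of all tested genes. Both knockout libraries lay above all controls in 4 and below them in 1, beside 22.8% and 22.5% of all tested genes. Hspb1 had 148 and 139 CPM in the knockout libraries, against 37.2, 54.4 and 41.0 CPM in the control libraries (1.70 ± 0.16, SE, edgeR adjusted p = 0.0098). Cryab averaged 28.8 ± 4.45 CPM in knockout (SD, n = 2) and 6.31 ± 0.684 CPM in control libraries (SD, n = 3; 2.19 ± 0.15, SE, edgeR adjusted p = 0.0076). Hspb8, the partner of Bag3, had 12.9 and 3.99 CPM in the knockout libraries and 1.84, 2.26 and 1.71 CPM in the controls (2.12 ± 0.45, SE, edgeR adjusted p = 0.042), with knockout library 1 well above library 2.

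Of 21 tested HSP90 cochaperones, Sugt1, an adaptor of HSP90, was higher at 78.9 ± 3.79 CPM in knockout (SD, n = 2) and 58.1 ± 1.82 CPM in control libraries (SD, n = 3; 0.44 ± 0.08, SE, edgeR adjusted p = 0.031), and none was lower. Ptges3 (p23) had a log2 fold change of 0.26 ± 0.08 (SE) and Ahsa1, the activator of HSP90's ATPase, 0.21 ± 0.09 (SE), neither past the test. Among the 10 partners of TRiC and prefoldin, Txndc9, a phosducin-like regulator of TRiC, was higher (0.42 ± 0.08, SE, edgeR adjusted p = 0.031) and none was lower. Both knockout libraries lay above all controls in 7 of these 10 and in 8 of the 21 cochaperones, and below in none, beside 22.8% of all tested genes above and 22.5% below. Of the 4 tested heat shock transcription factors none passed by edgeR, 0 by DESeq2 and 0 at an unadjusted p under 0.05, and Hsf1 had a log2 fold change of 0.28 ± 0.12 (SE, edgeR adjusted p = 0.19).

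Most of these partner calls needed all 3 controls, as did most calls over all genes. Of all tested genes, 7.24% were called with all libraries, and 0.0705% to 1.74% with 1 control library left out. Bag3, Bag5, Hyou1, Sugt1, Txndc9, Hspb8 and Ier3 missed the threshold whichever control library was left out (edgeR adjusted p = 0.053 to 0.18). Hspb1 missed it without control library 3 (edgeR adjusted p = 0.068), and Bag5 and Ier3 missed it with the length and GC offset (edgeR adjusted p = 0.061 and 0.16). With 1 knockout library left out, which takes the spread from the controls, Ier3 missed it without library 2 (edgeR adjusted p = 0.071) and Hspb8 without library 1 (edgeR adjusted p = 0.060, log2 fold change 1.03). Hspb8 missed it with the offset as well (0.057), with library totals alone (0.051), with no filter (0.062) and with limma-voom (0.087). Cryab passed with any 1 control library left out (edgeR adjusted p = 0.029 to 0.045).

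The 24 genes of ER folding and the unfolded protein response outside the members had no gene past the test in either direction, with a median of -0.08. An unadjusted p under 0.05 was found in 4, against 26.4% of all tested genes, and DESeq2 called 4 (Ero1lb, Eif2ak3, Atf6 and Ern1, all lower), against 17.1% of all. Both knockout libraries lay below all controls in 8 and above them in none, beside 22.5% of all tested genes below and 22.8% above. Eif2ak3 (PERK) had a log2 fold change of -0.30 ± 0.09 (SE, edgeR adjusted p = 0.094), Atf6 -0.31 ± 0.10 (SE, edgeR adjusted p = 0.098) and the oxidase Ero1lb -0.52 ± 0.14 (SE, edgeR adjusted p = 0.076). Of 11 mitochondrial chaperones and proteases none passed by edgeR and 0 by DESeq2, 2 had an unadjusted p under 0.05, and the median was -0.06. Clpp stood at 0.32 ± 0.11 (SE), Afg3l2 at -0.23 ± 0.08 (SE) and Htra2 at -0.28 ± 0.12 (SE).

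**Figure D5:**
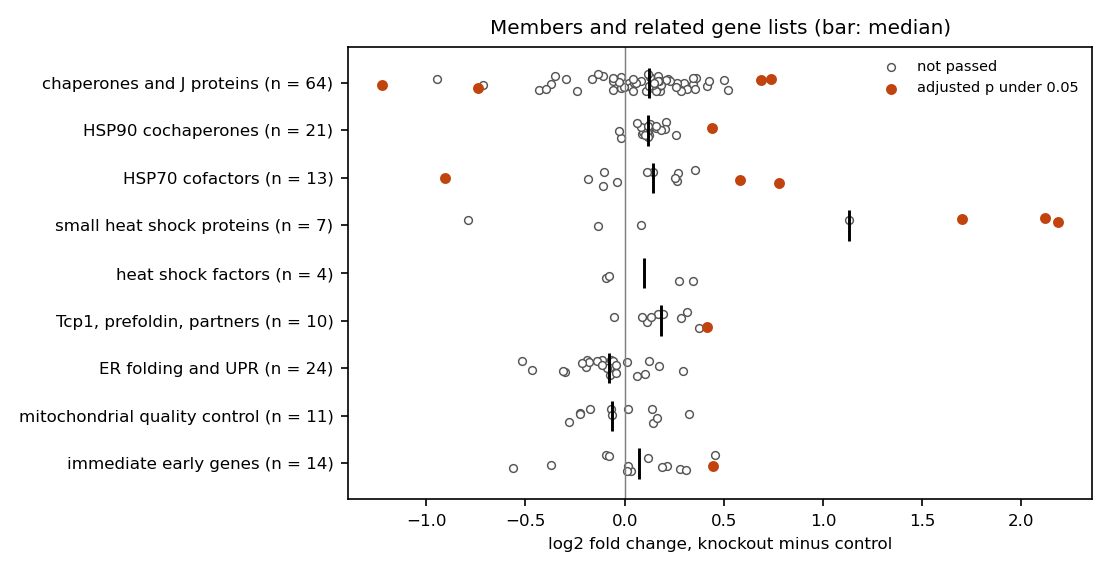
Each point is the log2 fold change (knockout minus control) of 1 tested gene, for the members in the top row and the partner lists below, filled where the edgeR adjusted p was under 0.05, with a bar at each median. The small heat shock proteins have a median of 1.13, and the medians of the HSP90 cochaperones (0.12), the TRiC and prefoldin partners (0.18) and the ER list (-0.08) lie near 0.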

How the data were processed

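Messenger RNA of sorted lymph node LECs (CD45-, TER119-, CD31+, podoplanin+) was turned into cDNA with a SMART-Seq v4 kit and tagmented with Nextera XT, per the labels' protocols. Neither kit marks strand, and amplified reads are not single molecules. Raw counts of reads per Ensembl gene were deposited by the authors in 1 table with a column for each library. HTSeq 0.6.1, TopHat2 2.0.14, Bowtie2 2.1.0, bcl2fastq 2.17.1.14 and the build mm10 are named in the submitters' processing notes. What each tool was set to do, the gene annotation and the handling of multi-mapped reads was not given in the sources used here.

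Symbols, positions and exon lengths came from GENCODE M21 (27648 of 27843 genes matched, same build). The counts were compared with edgeR 4.0.16 under R 4.3.3: filterByExpr (minimum count 10), TMM scaling, a robust quasi-likelihood F test (legacy form) of knockout against control in all 5 libraries, and Benjamini-Hochberg adjustment over 15874 genes, with a threshold of 0.05. The SE (standard error) was computed as the absolute fold change on the log2 scale over the root of F. CPM uses TMM-scaled totals, and levels between genes are per kb of merged exon. No test was run on a list as a whole. P-values measure the spread between these libraries, which may be partly technical.

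Members and lists were chosen with earlier results of these data known. Named were all members past the threshold, the up to 4 members per family with the smallest p and the one with the highest level per length, and the 10 largest changes at a mean log2 CPM of at least 1. From each list, up to 3 genes with the smallest p were named. Hspa2, Hspa8, Hspa9, Hspa12b, Cct4, Cct6a, Cct6b, Tcp1, Jund, Ern1 and the genes with heat shock motifs lie outside it and were picked with their values in view. Alternatives were library totals alone, RLE size factors, no filter on low counts, 1 CPM in 2 libraries, DESeq2 1.42.0, limma-voom (limma 3.58.1), a threshold of 0.1, a replicate block, an offset for length and GC content (loess span 0.5), each library left out, and, chosen after seeing the data, a sum of Hspa1a and Hspa1b reads. Protein features of the members were not analysed here.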

Additional observations from a re-analysis of the deposited data

How the results depend on the processing

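Under RLE size factors, library totals, no filter on low counts, 1 CPM in 2 libraries and limma-voom, Hspa1a and Hspa1b were called higher and Dnajc6 and Dnajc13 lower, as reported. Members higher numbered 2 as reported, 5 with DESeq2 and 5 at a threshold of 0.1, both of which add Dnajb4, Hspa12a and Hsph1 (and Hspa13 to the lower members), 3 with the offset for length and GC content, which drops Hspa1a and adds Dnajb4 (0.50, edgeR adjusted p = 0.037) and Hspa12a (0.66, edgeR adjusted p = 0.050), and 0 to 5 with 1 library left out. With 1 knockout library left out, the lone one is assumed to vary like the controls. Members lower numbered 2, and 0 to 3 with 1 library left out. All genes called numbered 1150, 2707 with DESeq2, 2546 at a threshold of 0.1, 748 with the offset for length and GC content, and 11 (without control library 3) to 1736 (without knockout library 1). The median log2 fold change of members was 0.12, with a range of 0.054 (without knockout library 2) to 0.16 when 1 library was left out. With the replicate number as a block, 0 members were higher, 0 were lower and 0 of all genes were called. The block is a hint only, since the genotypes share 2 numbers and the labels do not say that these pair animals. The deviations of knockout library 1 correlated at 0.0477 with control library 1, 0.0515 with library 2 and -0.107 with library 3. Under the block the edgeR adjusted p was 0.18 for Hspa1a, 0.14 for Hspa1b, 0.15 for their sum, 0.11 for Dnajc6, 0.12 for Dnajc13 and 0.083 to 0.24 for the called partners. The sum, chosen after seeing the data, had an edgeR adjusted p of 0.057 with the offset. Some members near 0 changed sign. Dnaja4 was at 0.0024 and Hspa8 at 0.067 under the block, Dnajc3 at 0.013, Hspd1 at -0.040 and Hspa8 at 0.020 with the offset, and Hspa8 at 0.0063 with the filter at 1 CPM. With 1 library left out, the log2 fold change ranged from -0.028 to 0.11 for Dnaja3, -0.24 to 0.16 for Dnaja4, -0.16 to 0.028 for Dnajc3, -0.0090 to 0.31 for Hsp90ab1, -0.077 to 0.39 for Hspa2, -0.097 to 0.60 for Hspa4l, -0.092 to 0.37 for Hspa5, -0.26 to 0.21 for Hspa8, -0.12 to 0.14 for Hspd1 and -0.29 to 0.20 for Hspe1. The cause of these differences was not tested.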
